A study of Mus musculus with 6 samples.

Results

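The genes of glycolysis and the tricarboxylic acid (TCA) cycle were followed in bulk RNA-seq of mouse peripheral nerve tissue. The set was listed by name, with no measured value in the rule but with earlier results of these data known, and holds 40 genes, all of them among the 24062 genes in the count files. It was compared between 3 *Nf1fl/fl;DhhCre* libraries and 3 libraries that were floxed for *Runx1* and *Runx3* as well (*Runx1fl/fl;Runx3fl/fl;Nf1fl/fl;DhhCre*), called double knockout below. All mice were on a C57BL/6-I129 background, and their age at dissection is not given in the sources used here. In both genotypes Cre under the *Dhh* promoter removes the floxed alleles in Schwann cells (SCs) and their precursors, so neurons, muscle, fat, vessels and immune cells of the same tissue keep intact genes. The sample labels give the genotype of the double knockout without *Nf1fl/fl* and call its tissue neurofibroma tumor but that of the controls DRG (dorsal root ganglion). The protocol names *Nf1fl/fl* and DRG/tumors for both, and an effect of the *Runx* genes and a difference in dissected tissue cannot be told apart. Replicates are numbered in the order of the labels. Each library has a number of its own in the labels, which do not say whether it stands for a mouse, and nothing pairs the libraries. For a pair of libraries in each genotype, title and deposited data carry each other's number, which leaves the genotypes as they are.

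Glycolysis splits glucose into pyruvate in the cytosol. The upper steps spend ATP to trap and split the sugar, and the lower steps recover ATP and reducing power. Lactate dehydrogenase turns pyruvate into lactate and back, while the pyruvate dehydrogenase complex, held in check by its own kinases, commits pyruvate to the TCA cycle in mitochondria. Many steps are catalyzed by isozymes from separate genes that differ between tissues. Skeletal muscle uses its own forms of enolase, phosphoglycerate mutase and phosphofructokinase, and neurons are known for *Eno2*. Brown fat is rich in mitochondria and in TCA cycle enzymes.

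The libraries held 12439296 to 16682194 counts, with TMM factors from 0.950 to 1.04, so 3 counts equaled 0.180 to 0.241 CPM, the count of a gene relative to the total of its library. *Runx1* was at 131, 141 and 172 CPM in *Nf1fl/fl;DhhCre* replicates 1, 2 and 3 and at 84.0, 78.9 and 185 CPM in the same order in the double knockout. In replicate 3 *Runx1* was thus not below the controls. Bulk tissue also holds cells that keep intact *Runx1*, so its level cannot decide whether the label holds. Double knockout stands for the label throughout. *Runx3* was at 19.9, 15.1 and 29.9 CPM against 13.55, 10.3 and 12.15 CPM, so that for this gene replicate 3, like the other two, lay below every control. The log2 fold changes of *Runx1* and *Runx3* were -0.44 (SE 0.32) and -0.79 (SE 0.30), and neither was called (limma-voom adjusted p = 0.370 and 0.104). The label of 1 double-knockout library names another sequencing run, and title and deposited data differ on whether this is replicate 2 or 3. Replicate 2 of each genotype carried skeletal muscle RNA. *Ttn*, the giant spring protein of muscle, was at 514, 16439 and 88.1 CPM in *Nf1fl/fl;DhhCre* and at 235, 36867 and 339 CPM in the double knockout. The summed level of 20 muscle genes was 166 to 23990 CPM and 391 to 59683 CPM in *Nf1fl/fl;DhhCre* and double knockout, with *Ttn*, *Acta1* and *Ckm* counted in every library, and 0 of the 19 tested passed the test. Of 20 neuronal genes, 19 rose in the double knockout, with a summed level of 1413 to 2910 CPM against 6955 to 15580 CPM, highest in double-knockout replicate 3. The 8 adipocyte genes summed to 345, 43.4 and 312 CPM in *Nf1fl/fl;DhhCre* and to 1416, 1321 and 163 CPM in the double knockout, with 0 of 8 past the test. *Sox10*, which defines the SC lineage, was at 221 ± 23.5 and 237 ± 31.7 CPM (SD, n = 3), and 11 of 13 macrophage genes fell. Of 8 fibroblast genes, 7 fell, with a summed level of 12066 to 13364 CPM in *Nf1fl/fl;DhhCre* and 3825 to 6728 CPM in the double knockout. The 12 SC genes summed to 2547 to 2950 CPM and 4176 to 5252 CPM, with 5 called higher and 1 lower. The part of these lists in the enzyme results was not tested. In the fit without double-knockout replicate 3, 17 of the 20 neuronal and 2 of the 8 adipocyte genes were called higher, 8 of the 13 macrophage and 4 of the 8 fibroblast genes lower and 0 of the 19 muscle genes in either direction. In bulk tissue, fewer cells of a type and less RNA per cell cannot be told apart.

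Mean expression of every enzyme gene that could be tested was higher in the double knockout, and 10 of them passed the test. A gene was called where the adjusted p-value from limma-voom (Benjamini-Hochberg over all 15652 genes tested) was below 0.05. *Eno1* had too few counts to be tested. All 39 remaining genes had a positive log2 fold change (double knockout minus *Nf1fl/fl;DhhCre*), with a median of 1.11 and a range from 0.16 to 1.90, whereas the median over all genes tested was 0.02. Of these, 10 were called higher and 0 lower, where 11.1% of all genes were called higher and 8.22% lower, together 19.3%.

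At an unadjusted p-value below 0.05, 26 of the 39 were higher and 0 lower, against 19.1% and 16.1% of all genes. edgeR's quasi-likelihood test and DESeq2 also called 0 lower. Of the 10 called, 8 also changed by more than 2-fold, the threshold for a differentially expressed gene (DEG). Over all genes, 8.03% were DEGs with higher and 5.36% with lower expression, together 13.4%. The double-knockout libraries lay above every *Nf1fl/fl;DhhCre* library for 26 of the 39 genes and below for 0, against 21.8% and 20.5% of all genes. The genes called were *Hk1*, *Pfkp* and *Aldoc* in upper glycolysis, *Pgk1*, *Pgam1*, *Eno2* and *Pkm* in lower glycolysis, *Ldhb*, and *Sucla2* and *Mdh1* in the TCA cycle.

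**Figure D1:**
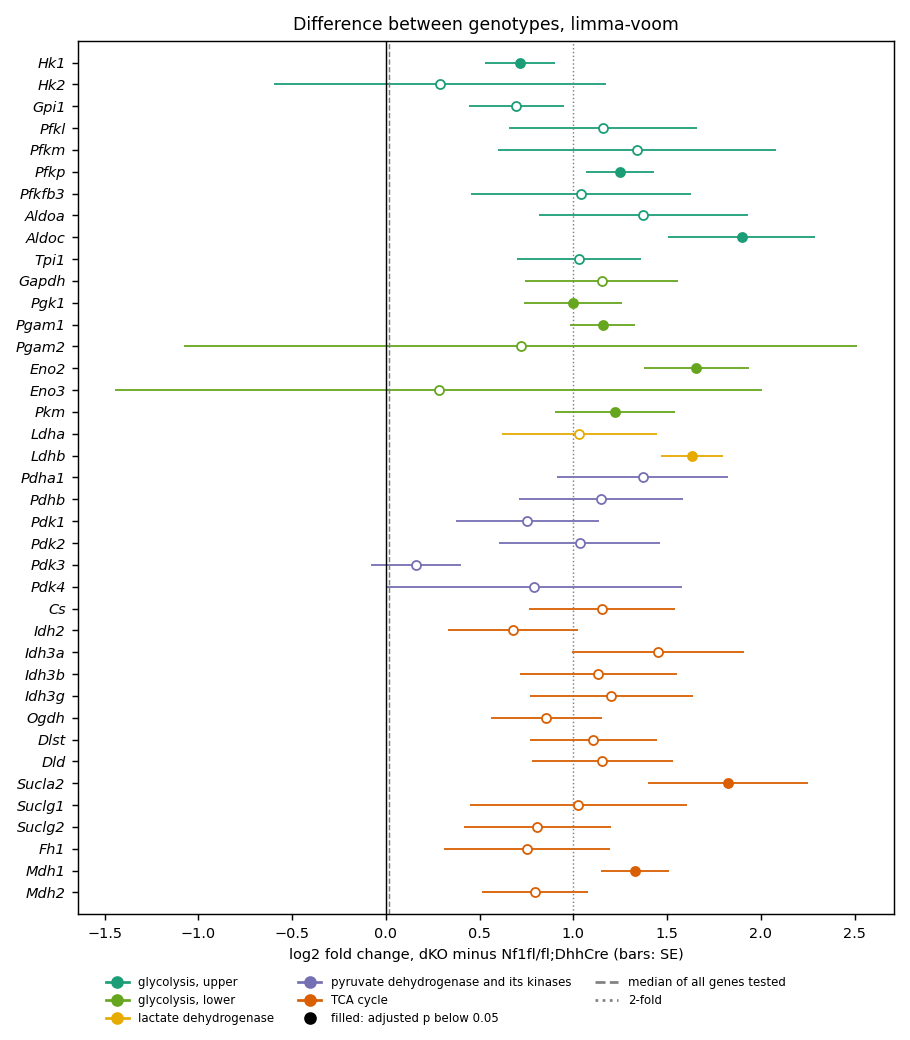
Log2 fold change (double knockout, dKO, minus Nf1fl/fl;DhhCre; x axis) of the 39 genes tested, with SE bars from limma-voom; colors give the step of the pathway, filled points an adjusted p below 0.05, the dashed line the median of all genes and the dotted line 2-fold. All points lie right of 0, and the widest bars belong to Pgam2 (SE 1.80) and Eno3 (SE 1.73).

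Levels of different genes were compared per kilobase of exon. In *Nf1fl/fl;DhhCre* the highest were *Ldha* with 115.5 ± 5.33 CPM per kb (SD, n = 3), *Gapdh* with 105.5 ± 24.9 and *Pgam1* with 84.2 ± 6.20 CPM per kb. *Ldha* and *Gapdh* did not differ beyond their spread. In the TCA cycle, *Ogdh* (45.8, 41.8 and 43.7 CPM per kb in replicates 1 to 3), *Dld* (30.7 ± 2.12) and *Cs* (30.5 ± 3.15 CPM per kb) were highest, and *Idh2* (3.32 ± 0.53), *Suclg1* (3.52 ± 0.32) and *Suclg2* (3.76 ± 0.82 CPM per kb) were lowest and did not differ beyond their spread. The order at the top was the same in the double knockout, with *Ldha* at 273 ± 181, *Gapdh* at 262.5 ± 171.5 and *Pgam1* at 190.5 ± 43.8 CPM per kb. There the SDs of *Ldha* and *Gapdh* exceeded their distance from *Pgam1*.

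**Figure D2:**
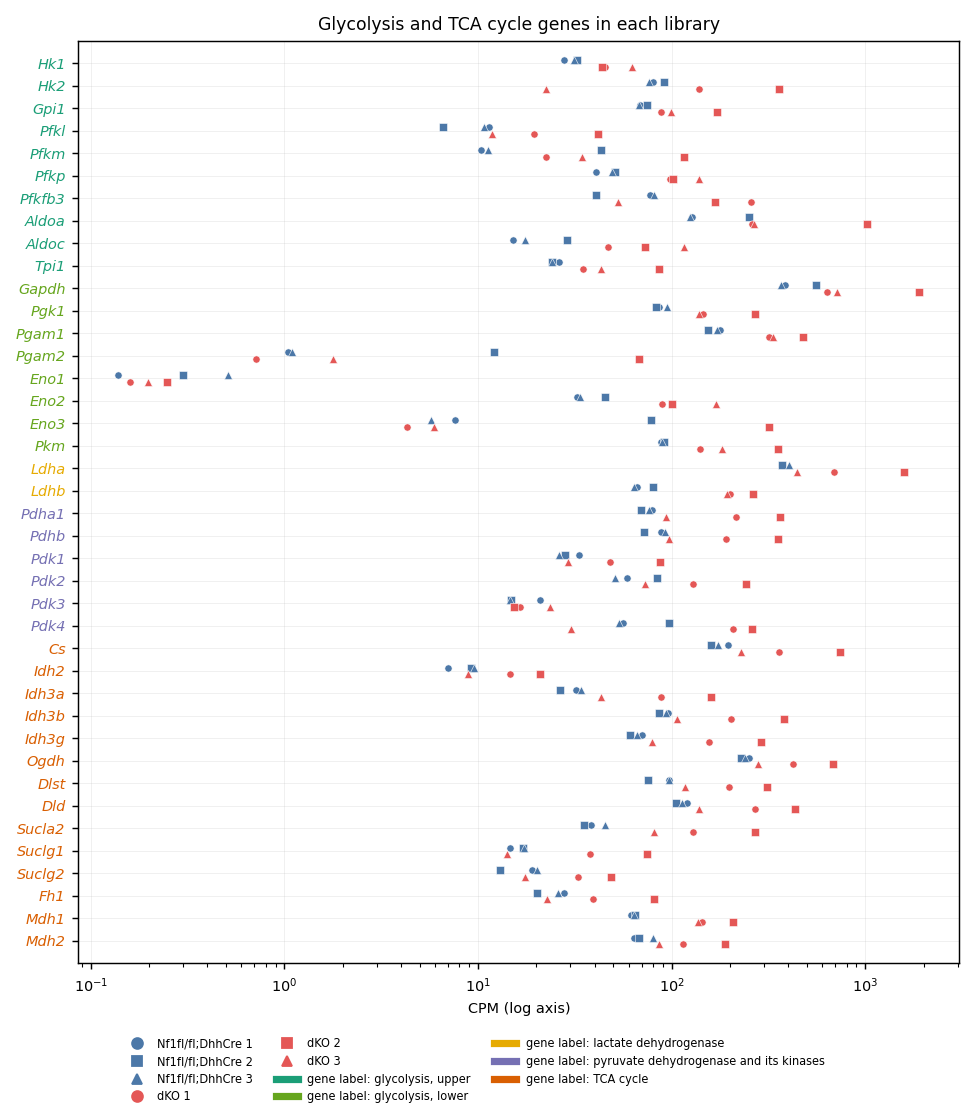
Expression of all 40 genes in each of the 6 libraries (x axis, CPM on a log axis; blue Nf1fl/fl;DhhCre, red double knockout, dKO; circle, square and triangle are replicates 1, 2 and 3; label colors give the step of the pathway). The red square, double-knockout replicate 2, is the rightmost point of most rows, and in Hk1, Pfkp, Aldoc, Eno2 and Pdk3 it is the red triangle, replicate 3.

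In upper glycolysis, 3 of 10 genes were called, beside 11.1% of all genes called higher, and the median log2 fold change was 1.10. *Hk1*, the hexokinase that traps glucose in brain and nerve (chromosome 10 of GRCm38, 62268855 to 62379908), was at 27.7, 32.3 and 31.3 CPM in *Nf1fl/fl;DhhCre* and at 45.03, 43.6 and 62.6 CPM in the double knockout. The genotypes did not overlap, and replicate 3 was highest. This was a change of 0.72 on the log2 scale (SE 0.19, limma-voom adjusted p = 0.0367). It was no longer called without *Nf1fl/fl;DhhCre* replicate 1 (adjusted p = 0.0976) or 3 (0.0707), without double-knockout replicate 2 (0.0596) or 3 (0.0673), or without both muscle-rich libraries (0.0569). *Hk2*, the inducible hexokinase of muscle and fat, was at 80.5, 91.2 and 76.1 CPM and at 139, 359.8 and 22.4 CPM. Double-knockout replicate 3 was the lowest and replicate 2 the highest of the 6 libraries. The log2 fold change of 0.29 (SE 0.89) was not called. It was -0.61 without double-knockout replicate 2 and 1.44 without replicate 3 (adjusted p = 0.0602).

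Phosphofructokinase, the committing step, is built from 3 genes with different patterns here. *Pfkp*, the platelet form (chromosome 13, 6579768 to 6648777), was at 40.8, 50.7 and 49.3 CPM in *Nf1fl/fl;DhhCre* and at 97.5, 101 and 138 CPM in the double knockout. Every double-knockout library was above every control, replicate 3 most. On the log2 scale the rise was 1.25 (SE 0.18, limma-voom adjusted p = 0.0103), and *Pfkp* stayed below 0.05 in each fit that left out 1 library. *Pfkm*, the muscle form, was at 10.3, 43.1 and 11.3 CPM and at 22.6, 115 and 34.3 CPM. It was highest in the muscle-rich replicate 2 of each genotype, and the genotypes overlapped. Its log2 fold change of 1.34 (SE 0.74) was not called. *Pfkl*, the liver form, was at 11.4, 6.61 and 10.8 CPM and at 19.4, 41.8 and 11.8 CPM (log2 fold change 1.16, SE 0.50, not called). Double-knockout replicate 3 lay just above the controls, and without it *Pfkm* and *Pfkl* had 1.54 and 1.62 and were not called either.

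Aldolase cleaves the sugar. *Aldoc*, the brain form (chromosome 11, 78322968 to 78327781), rose by 1.90 on the log2 scale (SE 0.39, limma-voom adjusted p = 0.0203). This was the largest change of the set in limma-voom with all libraries, within the SE of *Sucla2* (1.83, SE 0.43). *Aldoc* was at 15.2, 28.8 and 17.4 CPM in *Nf1fl/fl;DhhCre* and at 46.8, 73.0 and 116 CPM in the double knockout. The genotypes did not overlap, and replicate 3 was again highest. Adjusted p was 0.0743 without *Nf1fl/fl;DhhCre* replicate 1, 0.0656 without replicate 3 and 0.0564 without double-knockout replicate 2. *Aldoa*, the form of muscle and most tissues, was at 128, 250.2 and 125 CPM and at 259, 1022 and 267 CPM (log2 difference 1.37, SE 0.56, adjusted p = 0.127). Its groups did not overlap either, and replicate 2 was the highest of each. The other upper genes were not called. They were *Gpi1* (glucose phosphate isomerase), *Tpi1* (triosephosphate isomerase) and *Pfkfb3*, which makes the activator of phosphofructokinase, with log2 fold changes of 0.70, 1.03 and 1.04. *Gpi1* ranged from 67.9 to 74.9 CPM in *Nf1fl/fl;DhhCre* and from 88.5 to 172 CPM in the double knockout, and *Tpi1* from 24.0 to 26.1 CPM and from 34.7 to 86.3 CPM. *Pfkfb3* was the only member highest in double-knockout replicate 1, with 77.1, 40.7 and 80.9 CPM against 257, 167 and 52.6 CPM. Without double-knockout replicate 3 it was called (1.72, limma-voom adjusted p = 0.0289), while *Aldoa*, *Gpi1* and *Tpi1* were not, with 1.69, 0.81 and 1.15.

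The 4 upper and lower glycolytic genes that peaked in double-knockout replicate 3 and were called (*Hk1*, *Pfkp*, *Aldoc* and *Eno2*) shared that highest library with the neuronal genes. They were 40% of the 10 called genes, and replicate 3 was the highest double-knockout library for 42.6% of all genes tested, a similar share. *Snap25*, a neuronal vesicle protein, was at 340.3, 631 and 371 CPM in *Nf1fl/fl;DhhCre* and at 1712, 2351 and 3787 CPM in the double knockout. All 20 neuronal genes were expressed in both genotypes, and 19 of them were highest in replicate 3. The part of neuronal RNA in the rise of these enzymes was not tested.

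In lower glycolysis, 4 of 7 genes tested were called, beside 11.1% of all genes called higher, and the median log2 fold change was 1.15. *Pgam1*, the general phosphoglycerate mutase (chromosome 19, 41911923 to 41918660), was at 177, 153 and 171 CPM in *Nf1fl/fl;DhhCre* and at 319.8, 477 and 336 CPM in the double knockout. The genotypes were well apart. The rise was 1.16 on the log2 scale (SE 0.17, limma-voom adjusted p = 0.0110), with an adjusted p of 0.0539 without *Nf1fl/fl;DhhCre* replicate 1 and below 0.05 without any other library. *Eno2*, the neuronal enolase (chromosome 6, 124760053 to 124769673), was at 32.3, 45.3 and 33.5 CPM and at 88.9, 100.5 and 170.2 CPM. Each double-knockout library exceeded the controls, replicate 3 most. It rose by 1.66 on the log2 scale (SE 0.28, limma-voom adjusted p = 0.0132), and the call was lost only without *Nf1fl/fl;DhhCre* replicate 1 (adjusted p = 0.0548).

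*Pgk1*, phosphoglycerate kinase, which makes ATP (chromosome X, 106187100 to 106203699), was at 85.7, 82.7 and 94.5 CPM in *Nf1fl/fl;DhhCre* and at 145, 270.1 and 138 CPM in the double knockout. Its rise was 1.999-fold (SE 0.26 on the log2 scale, limma-voom adjusted p = 0.0383), just short of the 2-fold threshold. *Pkm*, pyruvate kinase (chromosome 9, 59656368 to 59679375), was at 87.9, 91.0 and 88.8 CPM and at 140.2, 354 and 183 CPM, a rise of 1.22 on the log2 scale (SE 0.32, limma-voom adjusted p = 0.0381). In both genes the genotypes did not overlap and replicate 2 was highest. *Pgk1* lost its call without any 1 of the *Nf1fl/fl;DhhCre* libraries (adjusted p = 0.131, 0.0865 and 0.09996 without replicates 1, 2 and 3) or without double-knockout replicate 1 (0.0618). *Pkm* lost it without any *Nf1fl/fl;DhhCre* library (0.125, 0.0733 and 0.110) or without double-knockout replicate 3 (0.0668). With the adipocyte score as a covariate, a setting chosen after seeing the data, neither was called (adjusted p = 0.109 for *Pgk1* and 0.0865 for *Pkm*).

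*Gapdh*, glyceraldehyde phosphate dehydrogenase and a common reference gene, was at 385, 554 and 369 CPM in *Nf1fl/fl;DhhCre* and at 635, 1902 and 718 CPM in the double knockout. Every double-knockout library was above every control, but the log2 fold change of 1.15 (SE 0.41) was not called (limma-voom adjusted p = 0.0897). The muscle isozymes went with the muscle genes. *Pgam2* was at 1.04, 12.1 and 1.09 CPM and at 0.717, 68.1 and 1.78 CPM. *Eno3* was at 7.63, 77.8 and 5.71 CPM and at 4.30, 318 and 5.94 CPM. Both were high in replicate 2 of each genotype, where *Ttn* was high, and low elsewhere. Neither was called, and without double-knockout replicate 2 their log2 fold changes of 0.72 and 0.28 became -1.08 and -1.60. Without double-knockout replicate 3 they were 1.44 and 1.23, and *Gapdh* had 1.36 (adjusted p = 0.0994). With the muscle score as a covariate in limma-voom, *Pgam2* was called higher (1.73, adjusted p = 0.0449), as were *Tpi1* (1.02, adjusted p = 0.0435) and *Pdk2* (0.96, adjusted p = 0.0424). In that fit *Gapdh*, *Aldoa* and *Pfkm* were called higher too, with log2 differences of 1.05 (adjusted p = 0.0219), 1.25 (adjusted p = 0.0185) and 1.22 (adjusted p = 0.0232). Without both muscle-rich libraries these 3 were also called, with 0.86 (adjusted p = 0.0208), 1.07 (adjusted p = 0.0174) and 1.39 (adjusted p = 0.0341), but *Pgam2* was not (0.16). *Eno1*, the general enolase, had 2 to 8 counts per library, and its copy *Eno1b* had at most 2.89 CPM.

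Parts of several of these genes cannot be told apart from other genes in short reads. Of the stretches of 50 bases in the *Pgk1* transcripts, 68% also occurred in transcripts of other genes, as did 58.4% for *Gapdh*, 49.5% for *Eno1*, 41.5% for *Pgam1* and 23.7% for *Pkm*. For *Ldhb* the share was 21.0%, for *Suclg2* 19.1% and for *Pfkp* 15.4%. It was 0.197% for *Eno2*, 1.64% for *Hk1* and 0 for *Aldoc*, *Pgam2*, *Eno3* and *Sucla2*. How the authors counted reads with several alignments is not given in the sources used here, so the levels of the genes with high shares, *Eno1* above all, are uncertain.

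Of the lactate dehydrogenase subunits, *Ldhb* rose and *Ldha* was not called. *Ldhb*, the heart-type subunit (chromosome 6, 142490249 to 142507957), was at 66.5, 79.9 and 64.0 CPM in *Nf1fl/fl;DhhCre* and at 200.1, 264 and 194 CPM in the double knockout. The lowest double-knockout library was well above the highest control. Its rise of 1.63 on the log2 scale (SE 0.17, limma-voom adjusted p = 0.00613) had the lowest adjusted p of the set. *Ldhb* stayed called in each fit that left out 1 library. *Ldha*, the muscle-type subunit and the more abundant transcript, was at 372, 372 and 403 CPM and at 689, 1583 and 442 CPM. Replicate 3 of the double knockout was only just above the controls. The change of 1.03 on the log2 scale (SE 0.42, adjusted p = 0.123) became 1.45 without that replicate (adjusted p = 0.0390).

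Of the 6 genes of the pyruvate dehydrogenase complex and its kinases, 0 were called by limma-voom, although all had positive log2 fold changes (median 0.91) and 3 had an unadjusted p below 0.05. Over all genes, 19.1% were higher at that unadjusted threshold. edgeR's quasi-likelihood test called 1 of the 6 and DESeq2 called 3, beside 11.2% and 15.9% of all genes called higher. *Pdha1*, the catalytic alpha subunit, was at 79.0, 69.3 and 75.9 CPM in *Nf1fl/fl;DhhCre* and at 216, 362 and 93.9 CPM in the double knockout. *Pdhb*, the beta subunit, was at 88.3, 72.1 and 92.0 CPM and at 190.5, 355 and 96.3 CPM. For both, the double-knockout libraries were above the controls, replicate 3 by little. Their log2 fold changes were 1.37 (SE 0.45) and 1.15 (SE 0.44).

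The kinases switch the complex off. *Pdk4*, induced by fasting and fatty acids, was at 55.8, 96.9 and 53.6 CPM in *Nf1fl/fl;DhhCre* and at 208, 259 and 30.0 CPM in the double knockout. Replicate 3 was the lowest and replicate 2 the highest of all 6 libraries. *Pdk2* was at 59.1, 83.6 and 50.7 CPM and at 128, 241 and 72.5 CPM, and *Pdk1* at 33.3, 28.1 and 26.1 CPM and at 48.2, 87.2 and 29.0 CPM. In both, replicate 3 lay among the controls. The log2 fold changes of *Pdk4*, *Pdk2* and *Pdk1* were 0.79 (SE 0.79), 1.03 (SE 0.43) and 0.75 (SE 0.38). *Pdk3* differed least of the set, at 20.8, 14.8 and 14.6 CPM and at 16.5, 15.4 and 23.5 CPM (log2 fold change 0.16, SE 0.24). Without double-knockout replicate 3, 5 of the 6 genes were called, all but *Pdk3* (log2 fold change -0.04), beside 8.79% of all genes called higher in that fit.

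In the TCA cycle, 2 of 14 genes were called, a share near the 11.1% of all genes called higher, and the median log2 fold change was 1.12. *Mdh1*, the cytosolic malate dehydrogenase of the malate shuttle (chromosome 11, 21556787 to 21572367), was at 61.7, 64.5 and 63.6 CPM in *Nf1fl/fl;DhhCre* and at 143, 207 and 137 CPM in the double knockout. The controls were nearly equal, and all double-knockout libraries were far above them. *Mdh1* rose by 1.33 on the log2 scale (SE 0.18, limma-voom adjusted p = 0.00958), and the call was lost only without *Nf1fl/fl;DhhCre* replicate 1 (adjusted p = 0.0524). *Mdh2*, the mitochondrial form, was at 64.2, 67.5 and 79.9 CPM and at 114, 189 and 86.0 CPM, a log2 difference of 0.80 (SE 0.28) that was not called (adjusted p = 0.0889). *Sucla2*, the ATP-forming subunit of succinyl-CoA ligase (chromosome 14, 73525319 to 73596142), was at 38.5, 35.3 and 45.3 CPM and at 128, 269 and 81.5 CPM. Double-knockout replicate 3, the lowest of its group, was still above every control. It rose by 1.83 on the log2 scale (SE 0.43, limma-voom adjusted p = 0.0283). It was not called without *Nf1fl/fl;DhhCre* replicate 1, 2 or 3 (adjusted p = 0.105, 0.0658 and 0.0799) or without double-knockout replicate 1 (0.0695), nor with the adipocyte score as a covariate (0.0618).

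The other 12 TCA cycle genes had log2 fold changes from 0.68 (*Idh2*) to 1.45 (*Idh3a*) and were not called. *Cs*, citrate synthase, which starts the cycle, was at 196, 159.5 and 174 CPM in *Nf1fl/fl;DhhCre* and at 358, 737 and 228 CPM in the double knockout. The libraries of the genotypes were apart, with replicate 3 closest to the controls. The 3 subunit genes of the NAD-linked isocitrate dehydrogenase, *Idh3a*, *Idh3b* and *Idh3g*, had log2 fold changes of 1.45 (SE 0.46), 1.13 (SE 0.42) and 1.20 (SE 0.43). Those of the oxoglutarate dehydrogenase complex, *Ogdh*, *Dlst* and *Dld*, had 0.85 (SE 0.30), 1.11 (SE 0.34) and 1.15 (SE 0.38). For all 6, each double-knockout library was above each control, as it was for 21.8% of all genes tested. *Idh3a* ranged from 26.5 to 33.9 CPM in *Nf1fl/fl;DhhCre* and from 43.4 to 159.9 CPM in the double knockout, and *Dlst* from 75.8 to 96.9 CPM and from 117 to 311 CPM. For *Idh2*, *Suclg1*, *Suclg2* and *Fh1* (fumarate hydratase), double-knockout replicate 3 lay among the controls or below them. *Suclg2*, the GTP-forming subunit, was at 19.1, 13.05 and 20.1 CPM and at 32.8, 48.6 and 17.4 CPM. Without that library, *Cs* and the 6 genes were called, beside 8.79% of all genes called higher. Their log2 fold changes ran from 1.18 (*Ogdh*) to 1.96 (*Idh3a*). Also called were *Mdh2*, *Suclg1* and *Suclg2*, with 1.07, 1.70 and 1.23. *Idh2* and *Fh1* were not, with 1.03 (limma-voom adjusted p = 0.0527) and 1.22 (adjusted p = 0.0641).

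The libraries had the same order throughout the TCA cycle. In all 14 genes, double-knockout replicate 2 was highest, then replicate 1, then replicate 3, an order found in 14.9% of all genes tested. In 10 of the 14, *Nf1fl/fl;DhhCre* replicate 2 was also the lowest control, against 37.5% of all genes, and both held in those 10, against 6.2% of all genes. The median log2 level over the *Nf1fl/fl;DhhCre* mean was 1.14, 1.87 and 0.28 in double-knockout replicates 1, 2 and 3. For pyruvate dehydrogenase and its kinases it was 1.11, 1.95 and 0.20. Upper glycolysis had 0.73, 1.85 and 0.78, and lower glycolysis 0.65, 1.99 and 0.74, with replicates 1 and 3 close to each other. The library order of the TCA cycle held in 5 of 6 genes of pyruvate dehydrogenase and its kinases, in both lactate dehydrogenase genes, in 2 of 10 genes of upper and in 1 of 7 of lower glycolysis. Over all genes tested the medians were 0.01, 0.02 and 0.02. Genes of a cycle whose levels share a library are not independent points.

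The adipocyte genes were high in double-knockout replicates 1 and 2 and low in *Nf1fl/fl;DhhCre* replicate 2 and double-knockout replicate 3. In the last library all 8 were below the highest control, as were 4 of the 14 TCA cycle genes. Among the double-knockout libraries, replicate 1 was highest for 4 of the 8 adipocyte genes and for 0 of the 14. *Ucp1*, the uncoupling protein that defines brown fat and was looked up after the values were seen, was at 99.9, 1.91 and 103 CPM in *Nf1fl/fl;DhhCre* and at 408, 838 and 23.0 CPM in the double knockout. Within the double knockout its order was that of the TCA cycle genes, over a much wider range. Double-knockout replicate 3 lay below *Nf1fl/fl;DhhCre* replicates 1 and 3 for *Ucp1*. That library was above every control in 10 of the 14 TCA cycle genes, against 36.9% of all genes tested. With the adipocyte score as a covariate, the median log2 fold change of the TCA cycle genes was 0.64 and 1 of 14 was called, beside 12.9% of all genes called higher in that fit. With the muscle score it was 1.09 and 2 of 14 were called, beside 11.2% of all genes. Without double-knockout replicate 2 it was 0.69, with 2 called beside 5.01% of all genes, and without replicate 3 it was 1.51, with 12 called beside 8.79%. The part of fat and muscle RNA in these values was not tested further.

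**Figure D3:**
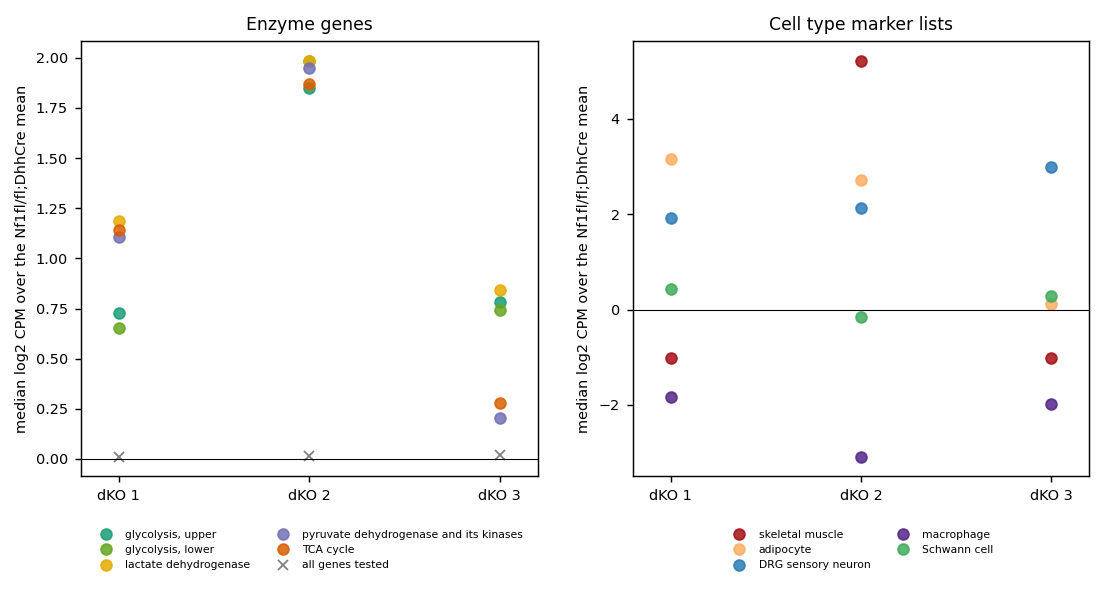
Median log2 CPM over the Nf1fl/fl;DhhCre mean (y axis) in double-knockout (dKO) replicates 1, 2 and 3, for the enzyme genes by step of the pathway and all genes tested (left) and for cell type marker lists (right, on a wider scale). All steps peak in replicate 2; in replicate 3 the TCA cycle (0.28) and pyruvate dehydrogenase (0.20) medians drop close to the controls while the neuronal list is highest.

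Whether isozymes of a step moved unequally was read from the log2 ratio of their CPM in each library, in which library scaling cancels. With 3 against 3 libraries the smallest two-sided exact permutation p is 0.1, so no ratio can pass 0.05, and 8 ratios were read. *Suclg2* over *Sucla2*, the GTP-forming against the ATP-forming subunit of succinyl-CoA ligase, was -1.01, -1.44 and -1.17 in *Nf1fl/fl;DhhCre* and -1.96, -2.47 and -2.22 in the double knockout. It was the only one of the 8 without overlap, with a difference of -1.01 (exact permutation p = 0.1, the smallest possible) and -1.14 to -0.89 when each library was left out. Of the stretches of *Suclg2*, 19.1% occur in another gene, *Gm15163*, as against 0 for *Sucla2*. *Ldhb* over *Ldha* was -2.48, -2.22 and -2.65 and then -1.78, -2.59 and -1.19. Replicate 2 of the double knockout lay among the controls. The difference was 0.60 (exact permutation p = 0.3), 0.27 without double-knockout replicate 3 and 0.97 without replicate 2.

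The remaining ratios overlapped between genotypes. *Aldoc* over *Aldoa* was -3.07, -3.12 and -2.83 in *Nf1fl/fl;DhhCre* and -2.47, -3.81 and -1.20 in the double knockout (difference 0.52, exact permutation p = 0.7). *Hk2* over *Hk1* was nearly constant in the controls at 1.54, 1.496 and 1.28 and spread to 1.62, 3.04 and -1.48 in the double knockout (difference -0.38, exact permutation p = 1). In both, replicates 2 and 3 of the double knockout stood at opposite ends. The differences of *Pfkm* and *Pfkp* over *Pfkl*, *Pgam2* over *Pgam1* and *Pdk2* over *Pdk1* were 0.20, 0.06, -0.26 and 0.28, with exact permutation p-values from 0.4 to 0.9. Leaving out 1 library turned the sign of 5 of the 8 differences. They ran from -1.37 to 0.90 for *Hk2* over *Hk1*, -0.13 to 1.17 for *Aldoc* over *Aldoa*, -0.31 to 1.11 for *Pfkm* and -0.52 to 0.62 for *Pfkp* over *Pfkl*, and -2.04 to 0.95 for *Pgam2* over *Pgam1*. Ratios to *Eno1* were left out because its counts were near the floor.

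**Figure D4:**
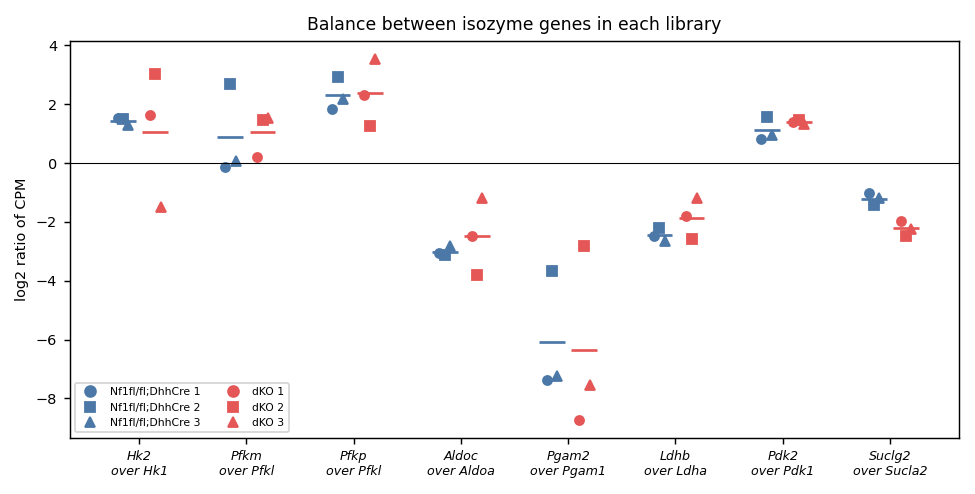
Log2 ratio of CPM between isozyme genes (y axis) for the 8 pairs, in each Nf1fl/fl;DhhCre (blue) and double-knockout (dKO, red) library; circle, square and triangle are replicates 1, 2 and 3 and bars are group means. Suclg2 over Sucla2 is the pair whose groups do not overlap, and Hk2 over Hk1 spreads from -1.48 to 3.04 in the double knockout.

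The sequences before the start sites are shown for the 4 genes with the lowest adjusted p. Each has 300 bases, from 250 before to 50 after the RefSeq start (GRCm38.p6). RefSeq windows matched 39 of the 40 genes by symbol (58 windows, all but *Idh3a*). The windows are chr6:142507908-142508207 (minus strand), chr11:21571885-21572184 (minus strand), chr13:6648722-6649021 (minus strand) and chr19:41911621-41911920 (plus strand), written 5′ to 3′ on the strand of the gene. Capitals mark the cores ACGTG and GCGTG bound by hypoxia-inducible factors and the RUNX motif TGTGGT, searched on both strands, so that CACGC and ACCACA are matches on the other strand.
Ldhb: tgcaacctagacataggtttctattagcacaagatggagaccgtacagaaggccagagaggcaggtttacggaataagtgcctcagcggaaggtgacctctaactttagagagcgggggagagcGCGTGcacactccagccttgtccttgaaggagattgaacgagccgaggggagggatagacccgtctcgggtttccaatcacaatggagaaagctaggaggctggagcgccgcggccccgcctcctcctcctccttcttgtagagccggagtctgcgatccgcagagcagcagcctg
Mdh1: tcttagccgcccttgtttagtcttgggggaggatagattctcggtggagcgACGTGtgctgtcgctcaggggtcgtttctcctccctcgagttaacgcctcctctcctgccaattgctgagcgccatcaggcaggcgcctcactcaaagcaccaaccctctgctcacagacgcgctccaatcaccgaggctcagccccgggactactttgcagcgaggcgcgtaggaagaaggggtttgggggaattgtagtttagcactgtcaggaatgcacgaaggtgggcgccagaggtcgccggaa
Pfkp: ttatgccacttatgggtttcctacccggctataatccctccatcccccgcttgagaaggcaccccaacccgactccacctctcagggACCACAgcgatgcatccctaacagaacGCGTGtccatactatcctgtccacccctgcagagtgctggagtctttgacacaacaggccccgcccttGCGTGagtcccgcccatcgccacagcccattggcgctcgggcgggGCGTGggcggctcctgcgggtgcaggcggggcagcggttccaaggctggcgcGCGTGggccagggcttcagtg
Pgam1: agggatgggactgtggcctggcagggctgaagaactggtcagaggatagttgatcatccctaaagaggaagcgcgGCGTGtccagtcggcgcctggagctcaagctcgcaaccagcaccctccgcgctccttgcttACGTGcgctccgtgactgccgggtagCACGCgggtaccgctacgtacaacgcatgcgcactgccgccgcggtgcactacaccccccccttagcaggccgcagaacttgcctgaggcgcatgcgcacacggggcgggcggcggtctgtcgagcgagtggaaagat

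*Pfkp* held GCGTG at -136, -68, -23 and 29 relative to the start site and TGTGGT on the other strand at -163. *Pgam1* held ACGTG at -114 and GCGTG at -175 and, on the other strand, -88. *Ldhb* held GCGTG at -126 and *Mdh1* ACGTG at -199. Over the set, ACGTG was found in 43.1% of the 58 windows (17 genes) against 19.6% of all 32851 windows, and GCGTG in 53.4% (23 genes) against 32.4%. The windows of the set were also richer in G and C, with a median of 60% against 52.7%. TGTGGT was in 13.8% (8 genes) against 16.8%, and AAGGTCA, the motif of estrogen-related receptors, in 5.17% against 4.72%. These are matches of letters, with no test and no measure of binding.

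The genes around these pathways were read from lists that hold none of the 40. In the other TCA cycle and shuttle genes, all 21 log2 fold changes were positive (median 1.03), and 2 were called higher, a share no larger than the 11.1% of all genes. These were *Idh1*, the cytosolic isocitrate dehydrogenase (a log2 difference of 0.59, SE 0.16, limma-voom adjusted p = 0.0398), and *Ogdhl*, which had at most 1.81 CPM. *Sdha*, a subunit of succinate dehydrogenase chosen after its values were seen, was at 313 ± 27.6 against 778 ± 498 CPM (SD, n = 3) and was not called. Of 8 genes of pyruvate entry and the rest of the pyruvate dehydrogenase complex (median 1.03), 2 were called higher. *Dlat*, the acetyltransferase core, was at 150.4, 112 and 141 CPM and at 346, 656 and 221 CPM (a log2 difference of 1.46, SE 0.37, adjusted p = 0.0353), and *Pdp2*, a phosphatase that switches the complex on, had 0.89 (SE 0.22, adjusted p = 0.0324). Without double-knockout replicate 3, 11 of the 21 and 6 of the 8 were called higher, beside 8.79% of all genes in that fit, among them *Idh1*, *Sdha*, *Dlat* and *Pdp2* but not *Ogdhl*.

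In the lists farther from the core, most genes were not called. The 9 glucose and lactate transport genes had a median of 0.30, with only *Slc16a7*, a lactate and pyruvate carrier, called higher (0.97, SE 0.25, limma-voom adjusted p = 0.0372). The 16 other genes of glycolysis and gluconeogenesis had a median of 0.10. *Tigar*, which opposes phosphofructokinase activation and is listed under an older symbol, was called higher (1.24, SE 0.33) and *Pfkfb4*, a relative of *Pfkfb3*, lower (-1.25, SE 0.35). Of 8 pentose phosphate genes (median 0.40) 0 were called, by limma-voom, and 1 had an unadjusted p below 0.05. Of 14 glycogen genes (median 0.74) 2 were called higher, *Pygb*, the brain glycogen phosphorylase (1.52, SE 0.27), and *Gyg*, the glycogen primer (1.15, SE 0.25). Of 16 hypoxia-induced genes (median 0.09) 2 were called higher, *Bnip3* (1.49, SE 0.23) and *Ndrg1* (0.71, SE 0.14). These shares stand beside the 11.1% of all genes called higher. With double-knockout replicate 3 left out, *Pygb*, *Gyg*, *Bnip3* and *Ndrg1* were called, and *Slc16a7*, *Tigar* and *Pfkfb4* were not (limma-voom adjusted p = 0.0847, 0.0673 and 0.133). Genes called higher there and not with all libraries were *G6pdx* and *Tkt* of the pentose phosphate pathway (2 of 8 in place of 0), *Gbe1* and *Pygl* of the glycogen list (4 of 14 in all), *Vegfa* and *Egln1* of the hypoxia list (4 of 16) and *Pfkfb1*. In that fit 8.79% of all genes were called higher.

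The number of enzyme genes called depended on the libraries and on the test, but no setting called any of them lower. edgeR's quasi-likelihood test called 14 and DESeq2 29 of 39, where 11.2% and 15.9% of all genes were called higher. All 10 genes of limma-voom were among both. Without double-knockout replicate 3, 25 were called, among them 8 of the 10 (not *Hk1* and *Pkm*), beside 8.79% of all genes called higher. Without *Nf1fl/fl;DhhCre* replicate 1, 2 were called, *Pfkp* and *Ldhb*, beside 1.20% of all genes. Those 2 genes were called in all 6 fits that left out 1 library and in all 8 other planned settings with every library. Without both muscle-rich libraries, 12 were called, 9 of them among the 10 (not *Hk1*), beside 7.52% of all genes called higher, and the median log2 fold change was 0.66.

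**Figure D5:**
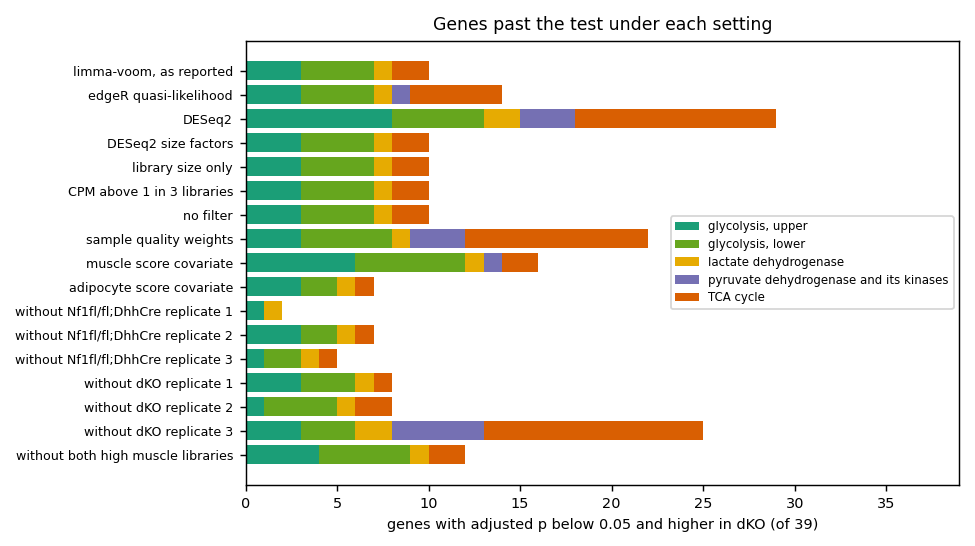
Number of the 39 genes with an adjusted p below 0.05 and higher expression in the double knockout (dKO; x axis) under each test, normalization, filter, covariate or left-out library, colored by step of the pathway. The count runs from 2 without Nf1fl/fl;DhhCre replicate 1 to 29 with DESeq2, and TCA cycle genes go from 2 to 11 with DESeq2, to 10 with sample quality weights and to 12 without double-knockout replicate 3.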

How the data were processed

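RNA was amplified with the NuGEN Ovation system from DRG/tumors, and Nextera XT libraries were sequenced as paired ends. The authors aligned reads to mm10 with TopHat and counted them per gene with featureCounts, and the deposited values are these raw counts, not normalized. The gene annotation, strand setting and treatment of multiple alignments are not given in the sources used here. After filterByExpr (at least 10 counts, total at least 15) and TMM scaling, genotype was tested with limma-voom (R 4.3.3, edgeR 4.0.16, limma 3.58.1), with Benjamini-Hochberg adjustment over 15652 genes. CPM used TMM-scaled totals, and levels per kb used the exon union of GENCODE M21 (GRCm38). Isozyme ratios used log2 CPM with a prior count of 0.5. DESeq2 1.42.0, other scalings, filters, weights, covariates and left-out libraries were alternatives. The code was tested on simulated counts. Libraries of a genotype differed beyond counting noise, none being a copy. The labels number the libraries separately without saying whether they came from separate mice, so p-values measure the spread between libraries.

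Values in every library are given for the called members, for the isozymes compared as ratios and for further members chosen after their values were seen, other genes by range, fold change or count. The member genes and all lists were chosen with earlier results of these data known. Other genes with a value were named as the called genes of each list, or as said in the text.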

Additional observations from a re-analysis of the deposited data

How the results depend on the processing

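The 10 enzyme genes called higher and 8 DEGs by limma-voom became 29 and 25 with DESeq2, 22 and 19 with sample quality weights and 16 and 13 with the muscle score as a covariate (14.3% and 11.2% of all genes called higher in the last 2), and DEGs became 13 with edgeR's quasi-likelihood test. When 1 library was left out, both ranged from 2 to 25. Genes of the neighbouring lists called (11) became 34 with DESeq2, 23 with sample quality weights and 6 without both muscle-rich libraries, and 0 to 28 with 1 library left out. All genes called (3017) became 4574 with DESeq2 and 383 to 3006 with 1 library left out. The cause of these shifts was not tested, beyond the fewer libraries in the last. DESeq2 size factors, library size only (median of all genes -0.06) and both filters on low counts kept 10 and 8. The adipocyte score covariate, added after seeing the data, gave 7 and 6, beside 12.9% of all genes. The log2 fold changes of *Hk2*, *Pgam2*, *Eno3* and *Pdk3* changed sign in at least 1 alternative. When 1 library was left out, 5 of the 8 isozyme differences changed sign, within the wide spread of their groups. *Eno1* was below the depth needed for a test. No paired analysis was possible because the labels give the genotypes no shared replicate numbers.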

Other observations

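Of 7 brown adipocyte genes, listed after the values were seen, 6 had the double-knockout library order of the TCA cycle genes. *Cidea*, a lipid droplet protein, was at 8.46, 0 and 8.15 CPM in *Nf1fl/fl;DhhCre* and at 35.2, 69.7 and 0.462 CPM in the double knockout. *Elovl3*, a fatty acid elongase, was at 3.12, 0.119 and 1.73 CPM and at 11.8, 32.8 and 0.462 CPM, and *Cox8b*, a respiratory chain subunit of brown fat and muscle, at 7.21, 4.94 and 5.13 CPM and at 30.4, 57.7 and 2.05 CPM. *Cox7a1*, another such subunit, was at 2.91, 3.63 and 7.12 CPM and at 16.1, 37.3 and 2.18 CPM. These 4 were high in double-knockout replicates 1 and 2 and lowest or near lowest in replicate 3, and none was called by limma-voom (adjusted p = 0.559, 0.486, 0.523 and 0.475). *Cpt1b*, a carnitine palmitoyltransferase, was not tested. It had at most 1.97 CPM, in double-knockout replicate 2, and replicate 1 was its lowest library at 0.0797 CPM. *Ppargc1a*, a coactivator of mitochondrial genes that many tissues express, differed from these. It was at 79.2, 92.6 and 65.0 CPM and at 155, 196 and 138 CPM, with no overlap and a rise of 1.04 on the log2 scale (SE 0.19, limma-voom adjusted p = 0.0149).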
